A study of Homo sapiens with 6 samples.

Results

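The genes described here encode inhibin, activin and the proteins that bind them. They are 10 named genes of the 34869 in the deposited table: the subunits INHA, INHBA, INHBB and INHBE, the binding proteins FST and FSTL3, the receptors ACVR1B, ACVR2A and ACVR2B, and the co-receptor TGFBR3. They were taken by name as known regulators of adrenocortical growth, and not by a rule on their values, though earlier results of these data were known. The cells were NCI-H295R, an established line grown from a human adrenocortical carcinoma that still secretes steroids of the adrenal cortex, and their RNA was read by paired-end sequencing. One group, shTPD52, received a lentiviral short hairpin RNA (shRNA) that targets TPD52, and the other, shCtrl, a lentiviral shRNA without a target. There were 3 libraries in each group. Both groups shared the same medium, which held fetal bovine serum and insulin-transferrin-selenium. No source used here gives the number of hairpins or the time between transduction and harvest. Both groups come from a single tumour line. The labels do not tell whether replicates were grown as separate cultures, so the p-values speak only of the spread among these libraries, which may be technical.

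Inhibins and activins are dimers of the TGF-β family. An activin is built from β subunits only, whereas an inhibin pairs a β subunit with the α subunit that INHA encodes. Activin binds a type II receptor (ACVR2A or ACVR2B), which recruits the type I receptor ACVR1B, whose kinase phosphorylates SMAD2 and SMAD3. Inhibin, held by betaglycan (TGFBR3), occupies the type II receptors without starting that signal, and follistatin (FST) and its relative FSTL3 bind activin outside the cell. In the adrenal cortex INHA is expressed by the steroid-producing cells, and mice that lack Inha develop adrenocortical tumours after gonadectomy.

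The targeted gene was checked first. TPD52 (ENSG00000076554) was present at 0.630, 0.635 and 0.655 FPKM in shTPD52 replicates 1, 2 and 3, against 1.42, 1.18 and 1.29 FPKM in shCtrl replicates 1, 2 and 3. FPKM are reads scaled to gene length and to library size. The groups did not overlap, and the mean in shTPD52 was 0.494 of that in shCtrl. The fitted difference of log2(FPKM + 0.5) was -0.65 (SE 0.14, adjusted p = 0.0219 by limma). Here and below, fold changes are such differences, shTPD52 minus shCtrl, a scale that understates the change of low genes, and a gene passed at an adjusted p under 0.05. Without shTPD52 replicate 2 the TPD52 call held, and leaving out any other single library ended it, as did a correction for gene length and GC content (-0.49, adjusted p = 0.0918).

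Library depth, worked back from the FPKM, was between 29544341 and 38396624 reads. Mitochondrially encoded genes took 22.5%, 19.6% and 24.3% of the recovered reads in shTPD52 replicates 1, 2 and 3, against 18.5%, 17.5% and 17.7% in shCtrl. Of the 3 shTPD52 libraries, replicate 2 was the nearest to the shCtrl mean in 56.6% of the 12782 genes tested. Fold changes also moved with the length of a gene's exons: the median log2 fold change was 0.066 over the 3970 genes of up to 3000 bases and -0.32 over the 1177 genes above 10000 bases. The line showed the adrenocortical markers of its label, whose FPKM summed to between 422.8 and 429.6 in shTPD52 and between 372.4 and 397.5 in shCtrl. The 6 fibroblast markers summed to between 0.732 and 0.824 FPKM in shTPD52 and between 0.979 and 1.28 in shCtrl. The 5 endothelial markers summed to between 0.143 and 0.239 FPKM in shTPD52 and between 0.143 and 0.305 in shCtrl. The adrenal medulla markers, led by the granule protein CHGB, summed to between 35.1 and 38.5 FPKM in shTPD52 and between 44.8 and 49.0 in shCtrl. The gonadal markers, led by AMH and AMHR2, summed to between 23.6 and 29.4 FPKM in shTPD52 and between 24.3 and 29.5 in shCtrl. None of the markers of these lists was at 0 in every library.

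Follistatin fell in shTPD52, and it was the only one of the 8 members tested that passed. The other 7 did not pass, and INHBA and INHBB lay under the filter of a mean of 1 FPKM. In bulk RNA such as this, fewer cells of a kind and less RNA per cell cannot be told apart. By limma, 0 of the 8 rose, against 5.63% of all genes tested, and 1 of 8 fell, against 12.7%. Both directions together took in 18.3% of all genes tested. At an unadjusted p under 0.05, 1 member was higher (INHA) and 2 were lower (FST and TGFBR3), and limma-voom on the recovered reads called 0 higher and 1 lower. The groups did not overlap for 4 of the 8, with INHA higher and FST, FSTL3 and ACVR1B lower, while such separation was seen in 42.0% of all genes tested (13.8% higher, 28.3% lower). The median log2 fold change of the 8 was -0.23, beside -0.11 over all genes tested. Once the trend of each library on exon length and GC content had been removed (the length and GC correction), the median of the 8 was -0.069, and FST was again the 1 member called lower, beside 10.1% of all genes lower and 10.2% higher.

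**Figure D1:**
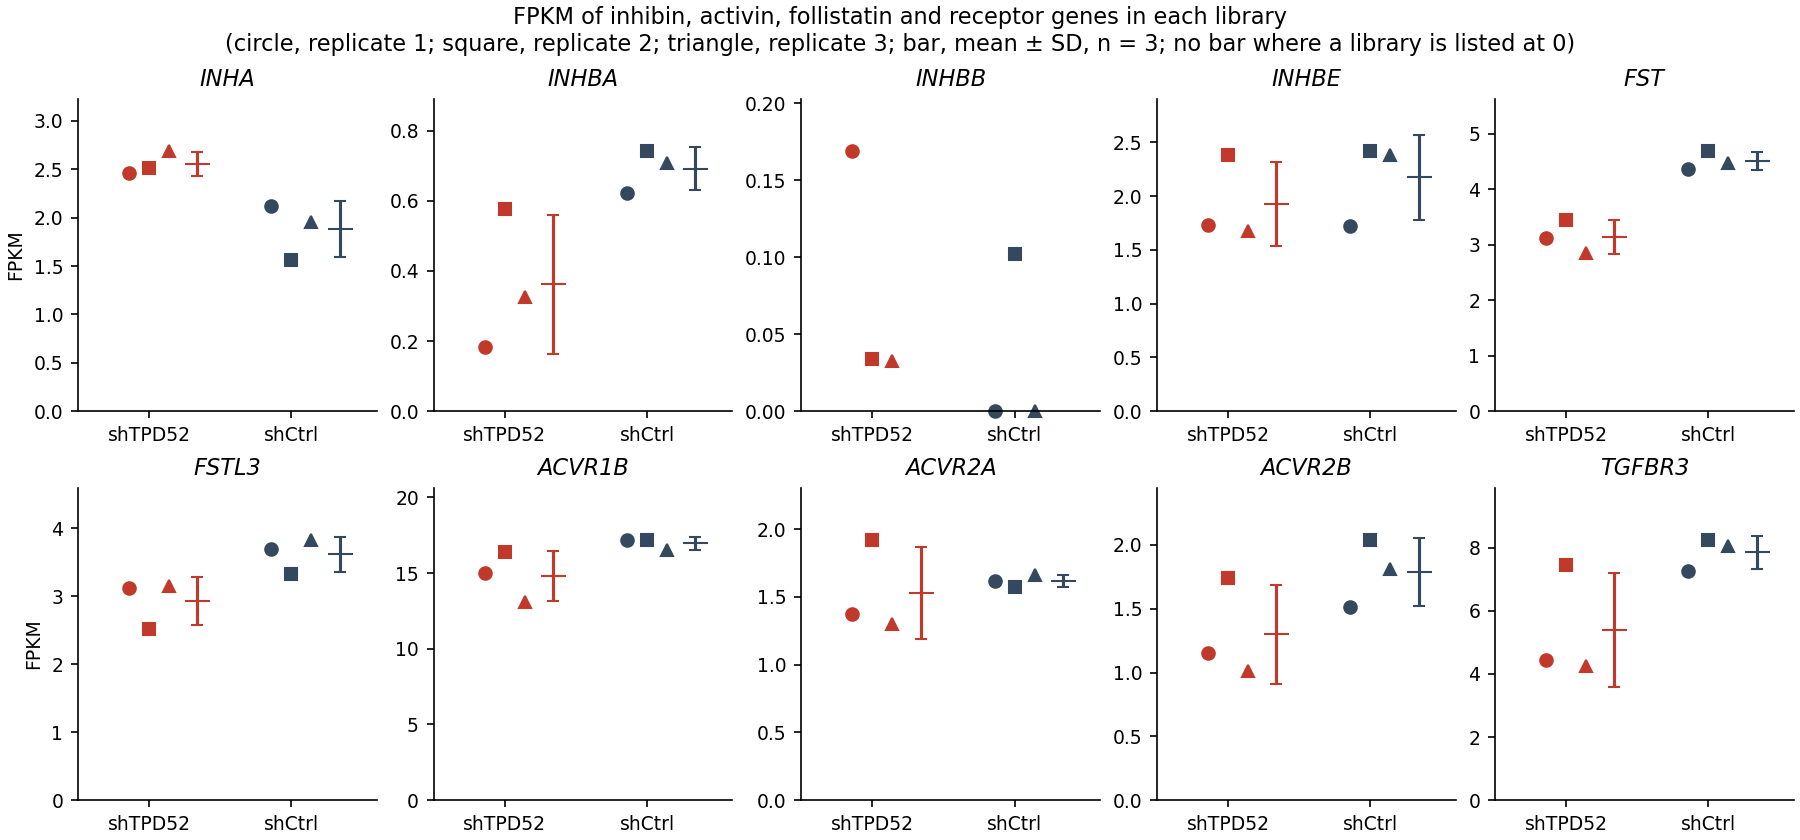
FPKM of each of the 10 genes, 1 panel per gene with its own axis from 0, for the 3 shTPD52 libraries (left) and the 3 shCtrl libraries (right); the marker shape gives the replicate and the bar the mean ± SD. INHA sits higher in every shTPD52 library and FST lower, while in TGFBR3 the shTPD52 replicate 2 value of 7.46 FPKM reaches into the shCtrl range of 7.26 to 8.25 FPKM.

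In level, ACVR1B stood apart at the top with a mean of 15.9 FPKM over the 6 libraries (range 13.1 to 17.2). TGFBR3 followed at 6.62, FST at 3.83, FSTL3 at 3.27, INHA at 2.22, INHBE at 2.05, ACVR2A at 1.57 and ACVR2B at 1.54 FPKM. From TGFBR3 down to ACVR2B each gene's range over the libraries overlapped that of the next, so neighbours in this order were not separated. INHBA (0.527 FPKM) lay below ACVR2B with no overlap, and INHBB (at most 0.169 FPKM) below INHBA. The type I receptor was thus the most abundant of these transcripts per length, and the β subunits of activins A and B were the least.

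The promoters of INHA and FST are shown because INHA had the largest positive fold change of the tested members and FST was the member that passed. The RefSeq tables (GRCh38.p14) gave 10 windows for 9 of the 10 genes, each 250 bases before the start of transcription and 50 after it. In the sequences, 5′ to 3′ on the strand of the gene, capitals mark matches on either strand to 5 motifs: AAGGTCA (the core bound by NR5A1), TGACG (the core of a cAMP response element), TGATAA and AGATAA (both GATA), and CAGAC (a SMAD element). The INHA window is chr2:219572060-219572359 on the plus strand, within the GENCODE span of the gene, and the FST window is chr5:53480379-53480678 on the plus strand.
INHA: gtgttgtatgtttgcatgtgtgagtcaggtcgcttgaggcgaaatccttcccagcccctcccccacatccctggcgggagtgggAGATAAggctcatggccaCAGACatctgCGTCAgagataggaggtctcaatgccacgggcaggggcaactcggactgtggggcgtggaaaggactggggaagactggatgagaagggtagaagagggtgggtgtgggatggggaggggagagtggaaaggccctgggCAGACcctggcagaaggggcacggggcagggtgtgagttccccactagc
FST: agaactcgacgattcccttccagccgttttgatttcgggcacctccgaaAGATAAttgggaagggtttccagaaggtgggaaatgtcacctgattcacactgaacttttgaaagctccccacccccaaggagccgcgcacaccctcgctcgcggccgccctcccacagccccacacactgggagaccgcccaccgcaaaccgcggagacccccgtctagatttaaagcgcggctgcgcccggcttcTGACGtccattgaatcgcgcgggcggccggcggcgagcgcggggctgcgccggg
Positions count from the start of transcription, with negative numbers before it. In INHA the GATA match began at -166, the CAGAC matches at -148 and 2, and the TGACG match, on the opposite strand, at -138. In FST the GATA match began at -201 and the TGACG match at -4. Of the 10 member windows, 4 held AGATAA, 4 held CAGAC and 3 held TGACG, while 0 held AAGGTCA or TGATAA. Of all 35116 promoters in the table, 10.3% held AGATAA, 45.3% CAGAC, 24.6% TGACG, 3.92% AAGGTCA and 7.53% TGATAA. No motif overlapped another in these 2 windows. Each match is a match of letters only, and a window without one shows only that those letters are absent there.

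**Figure D2:**
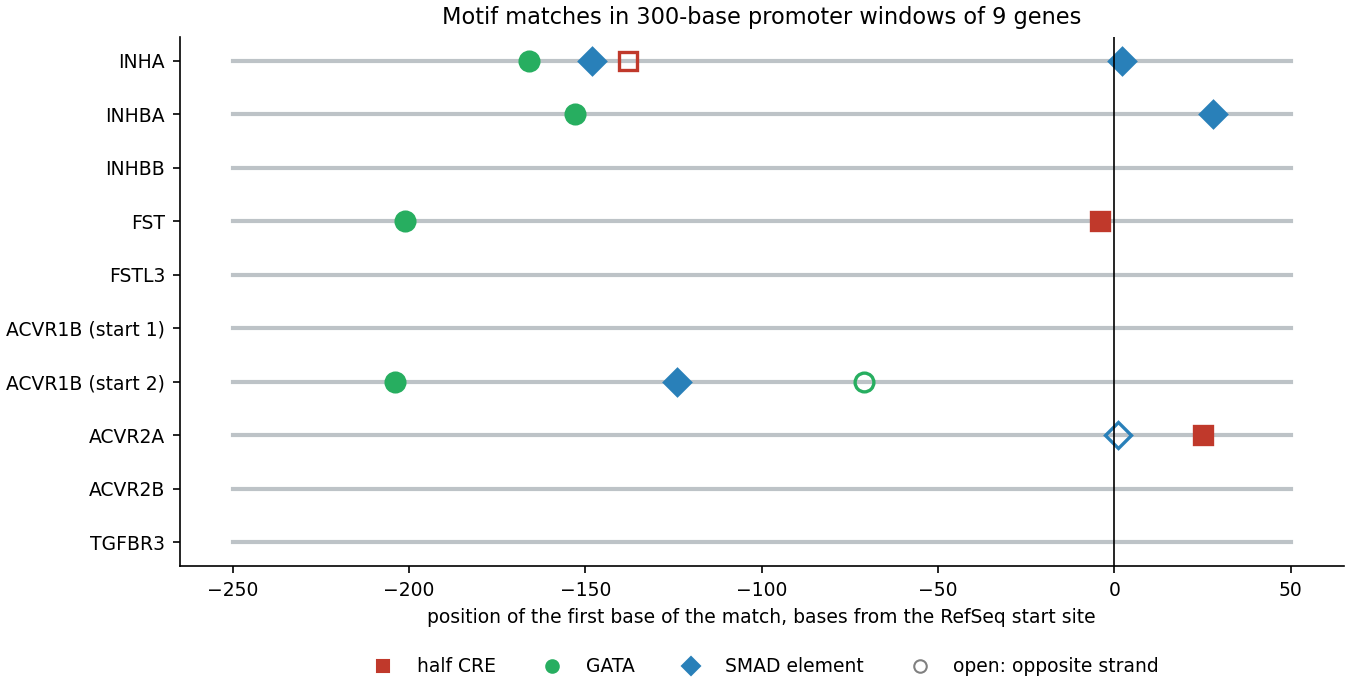
Positions of motif matches in the promoter windows of the members, in bases from the start of transcription (x axis), with 1 row per window. INHA carries 4 matches and FST 2, and no window holds the AAGGTCA motif searched.

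INHA (ENSG00000123999, GRCh38 chromosome 2, 219569162 to 219575713, plus strand) encodes the inhibin α subunit. It was present at 2.46, 2.51 and 2.69 FPKM in shTPD52 replicates 1, 2 and 3, against 2.12, 1.56 and 1.96 FPKM in shCtrl. Every shTPD52 library lay above every shCtrl library, and shTPD52 replicate 2 stood with the other replicates. The means were 2.56 ± 0.120 FPKM in shTPD52 and 1.88 ± 0.289 FPKM in shCtrl (SD, n = 3 each), a ratio of 1.36. On the log2 scale the difference of 0.37 (SE 0.13) did not pass, with a limma adjusted p of 0.0781. Over 18 alternatives the adjusted p ran from 0.0429 to 0.225. INHA passed in 2 of them, median-ratio scaling (0.47, adjusted p = 0.0486) and quantile normalization (0.50, adjusted p = 0.0429), scalings that shift all genes upward (with the first, the median of all genes was 0.00054 in place of -0.11). The value rested on 119 to 169 recovered reads per library in shTPD52 and 78 to 119 in shCtrl.

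INHBA (ENSG00000122641, chromosome 7, 41667168 to 41705834, minus strand) encodes the βA subunit, of which activin A is a homodimer. Its levels were 0.184, 0.576 and 0.327 FPKM in shTPD52 replicates 1, 2 and 3, against 0.623, 0.742 and 0.707 FPKM in shCtrl. The groups did not overlap, and replicate 2 was again the shTPD52 library nearest shCtrl. When INHBA, INHBB and TPD52 were added to the fit together, the log2 fold change of INHBA was -0.49 (SE 0.21, adjusted p = 0.124). It was -0.66 without shTPD52 replicate 2, where it passed (adjusted p = 0.0289), and -0.31 once length and GC were corrected for (adjusted p = 0.262). The recovered reads numbered 45, 174 and 104 in shTPD52 and 177, 188 and 216 in shCtrl.

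INHBB (ENSG00000163083, chromosome 2, 120346143 to 120351808, plus strand), which encodes the βB subunit of activin B, was barely detected. It had 0.169, 0.0342 and 0.0325 FPKM in shTPD52, from 16, 4 and 4 reads. In shCtrl it was listed at 0 in replicates 1 and 3 and had 0.102 FPKM in replicate 2, from 10 reads. For a library at 0 a count of 3 reads was taken as the upper limit, for counting error only. For this gene that was 0.0273 FPKM in shCtrl replicate 1 and 0.0254 FPKM in shCtrl replicate 3. The limit takes each read as independent, and it would be higher if both mates of a fragment were counted. The log2 fold change of 0.11 (SE 0.23, adjusted p = 0.743) ran from 0.0039 to 2.30 over the alternatives, so no direction could be read at this depth.

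INHBE (ENSG00000139269, chromosome 12, 57452323 to 57459280, plus strand) encodes the βE subunit, best known as a liver product. It had 1.73, 2.38 and 1.68 FPKM in shTPD52, against 1.72, 2.42 and 2.38 FPKM in shCtrl. The groups overlapped across nearly their whole ranges, with a log2 fold change of -0.14 (SE 0.17, adjusted p = 0.566).

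The balance of α to β subunits was taken in each library as the INHA FPKM over the sum of INHBA and INHBB. The ratio was 6.98, 4.12 and 7.48 in shTPD52 replicates 1, 2 and 3, against 3.40, 1.85 and 2.77 in shCtrl. Every shTPD52 value exceeded every shCtrl value, with means of 6.20 ± 1.81 in shTPD52 and 2.67 ± 0.783 in shCtrl (SD, n = 3 each). INHA alone was higher and INHBA alone lower without overlap, so the separation of their ratio adds nothing to those values. Neither gene passed by limma (adjusted p = 0.0781 for INHA and 0.124 for INHBA), and INHBA and INHBB lay under the filter. The difference of 3.52 carries no p, because the members were combined with earlier results known. Without shTPD52 replicate 2 it was 4.56, the highest value on leaving out 1 library. INHBA spans 8302 exon bases and INHA 1753, so the ratio sets a short transcript against a long one in libraries where fold changes moved with length, and the part of length in the ratio was not tested. The ratio is of RNA and says nothing of dimers secreted.

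**Figure D3:**
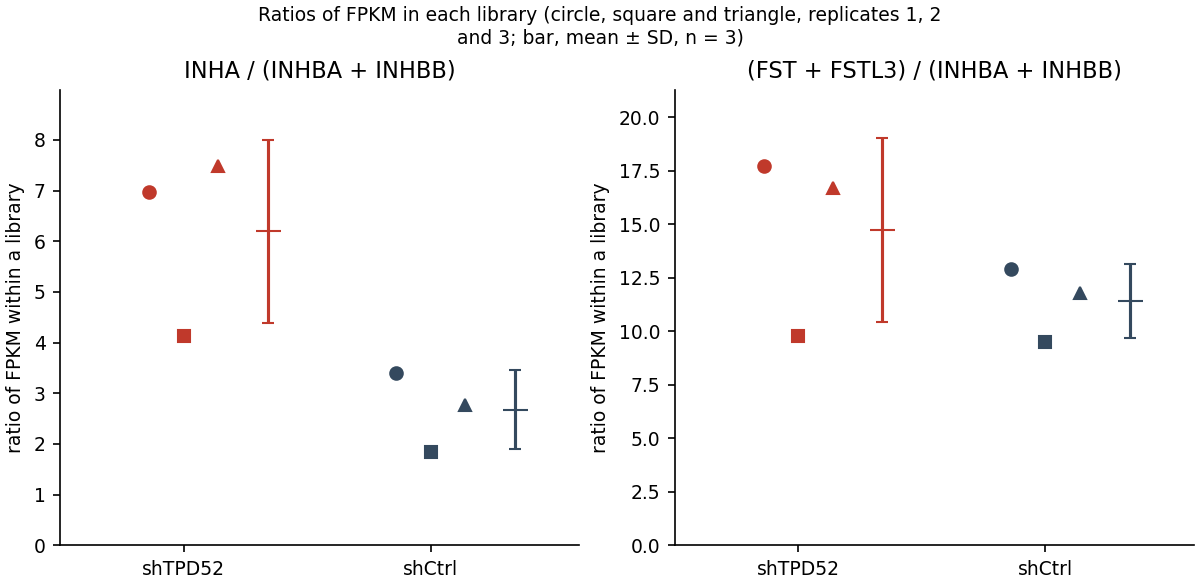
Ratio of INHA FPKM to the summed FPKM of INHBA and INHBB, and of FST plus FSTL3 to the same sum, in each shTPD52 library (left) and shCtrl library (right), with the mean and SD. The first ratio does not overlap between the groups, nor do INHA and INHBA taken singly, and the second ratio does overlap.

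FST (ENSG00000134363, chromosome 5, 53480409 to 53487134, plus strand) encodes follistatin, which wraps around activin and keeps it from its receptors. It was present at 3.12, 3.45 and 2.85 FPKM in shTPD52, against 4.36, 4.69 and 4.48 FPKM in shCtrl. The groups were well apart, with 3.14 ± 0.299 FPKM in shTPD52 and 4.51 ± 0.170 FPKM in shCtrl (SD, n = 3 each), a ratio of 0.696. Its log2 fold change of -0.46 (SE 0.10) passed by limma (adjusted p = 0.0250), and with the length and GC correction it was -0.47 (adjusted p = 0.0123). The call ended without the filter (adjusted p = 0.067) and on leaving out shTPD52 replicate 1 or 3 or any 1 of the shCtrl libraries, where the adjusted p ran from 0.0621 to 0.108. Without shTPD52 replicate 2 the fold change was -0.52 (adjusted p = 0.00425). Recovered reads numbered 254 to 346 per library in shTPD52 and 395 to 455 in shCtrl.

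FSTL3 (ENSG00000070404, chromosome 19, 676365 to 683399, plus strand) encodes follistatin-like 3, a second activin-binding protein. Its levels were 3.12, 2.52 and 3.15 FPKM in shTPD52, against 3.69, 3.33 and 3.83 FPKM in shCtrl. The groups did not overlap, and here replicate 2 of shTPD52 was the library farthest from shCtrl. A log2 fold change of -0.27 (SE 0.12) did not pass (adjusted p = 0.136), nor did it pass in any of 18 alternatives. Set against the β subunits, FST plus FSTL3 over INHBA plus INHBB was 17.7, 9.78 and 16.7 in shTPD52 and 12.9, 9.51 and 11.8 in shCtrl. That ratio, which was chosen after the values were seen, overlapped between the groups.

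ACVR1B (ENSG00000135503, chromosome 12, 51951667 to 51997078, plus strand) encodes the type I activin receptor, the kinase that phosphorylates SMAD2 and SMAD3. It had 15.0, 16.4 and 13.1 FPKM in shTPD52, against 17.2, 17.2 and 16.5 FPKM in shCtrl. The lowest shCtrl library stood just above the highest shTPD52 library. With a log2 fold change of -0.19 (SE 0.10, adjusted p = 0.177), ACVR1B did not pass. The value was -0.012 once length and GC were corrected for (adjusted p = 0.912) and -0.27 without shTPD52 replicate 2, where it passed (adjusted p = 0.0315). This was the most deeply counted member, with 2509 to 3377 reads per library in shTPD52 and 2975 to 3446 in shCtrl.

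The type II receptors were near the filter. ACVR2A (ENSG00000121989, chromosome 2, 147844517 to 147930826, plus strand) was present at 1.37, 1.92 and 1.30 FPKM in shTPD52, against 1.62, 1.57 and 1.66 FPKM in shCtrl. The shTPD52 libraries lay on both sides of the narrow shCtrl range. The log2 fold change was -0.073 (SE 0.15, adjusted p = 0.741) and turned positive in 5 alternatives. Exons of ACVR2A overlap those of ORC4 on the opposite strand, and since no source used here gives the strand setting of the counting, reads of the 2 genes cannot be told apart there. ACVR2B (ENSG00000114739, chromosome 3, 38453851 to 38493142, plus strand) was present at 1.15, 1.74 and 1.01 FPKM in shTPD52, against 1.51, 2.04 and 1.81 FPKM in shCtrl. Its groups overlapped through shTPD52 replicate 2. The log2 fold change was -0.36 (SE 0.18, adjusted p = 0.179) and passed without that library (-0.53, adjusted p = 0.0235). ACVR2B has 15744 exon bases, and with the length and GC correction its value was -0.031 (adjusted p = 0.849).

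TGFBR3 (ENSG00000069702, chromosome 1, 91680343 to 91906335, minus strand) encodes betaglycan, the co-receptor that holds inhibin on ACVR2A and ACVR2B and also presents TGF-β2. It was present at 4.44, 7.46 and 4.25 FPKM in shTPD52, against 7.26, 8.25 and 8.04 FPKM in shCtrl. Replicates 1 and 3 of shTPD52 were well below every shCtrl library, and replicate 2 lay within the shCtrl range. The means were 5.38 ± 1.80 FPKM in shTPD52 and 7.85 ± 0.523 FPKM in shCtrl (SD, n = 3 each). The log2 fold change of -0.54 (SE 0.19), the largest in size among the 8 tested members, did not pass (limma adjusted p = 0.0802). Without shTPD52 replicate 2 it was -0.78 (adjusted p = 0.00140), and -0.44 when the length and GC correction was applied as well (adjusted p = 0.00482). With all 6 libraries and that correction it was -0.32 (adjusted p = 0.0726).

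Across the members, shTPD52 replicate 2 was the shTPD52 library nearest the shCtrl mean for 6 of 10, a share close to the 56.6% seen over all genes tested. Without it, 4 of the 8 tested members passed as lower (FST, ACVR1B, ACVR2B and TGFBR3), beside 32.9% of all genes tested called lower and 12.6% called higher in the same fit. With the length and GC correction as well, 2 of the 8 passed as lower, FST and TGFBR3, beside 19.9% lower and 19.0% higher over all genes.

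**Figure D4:**
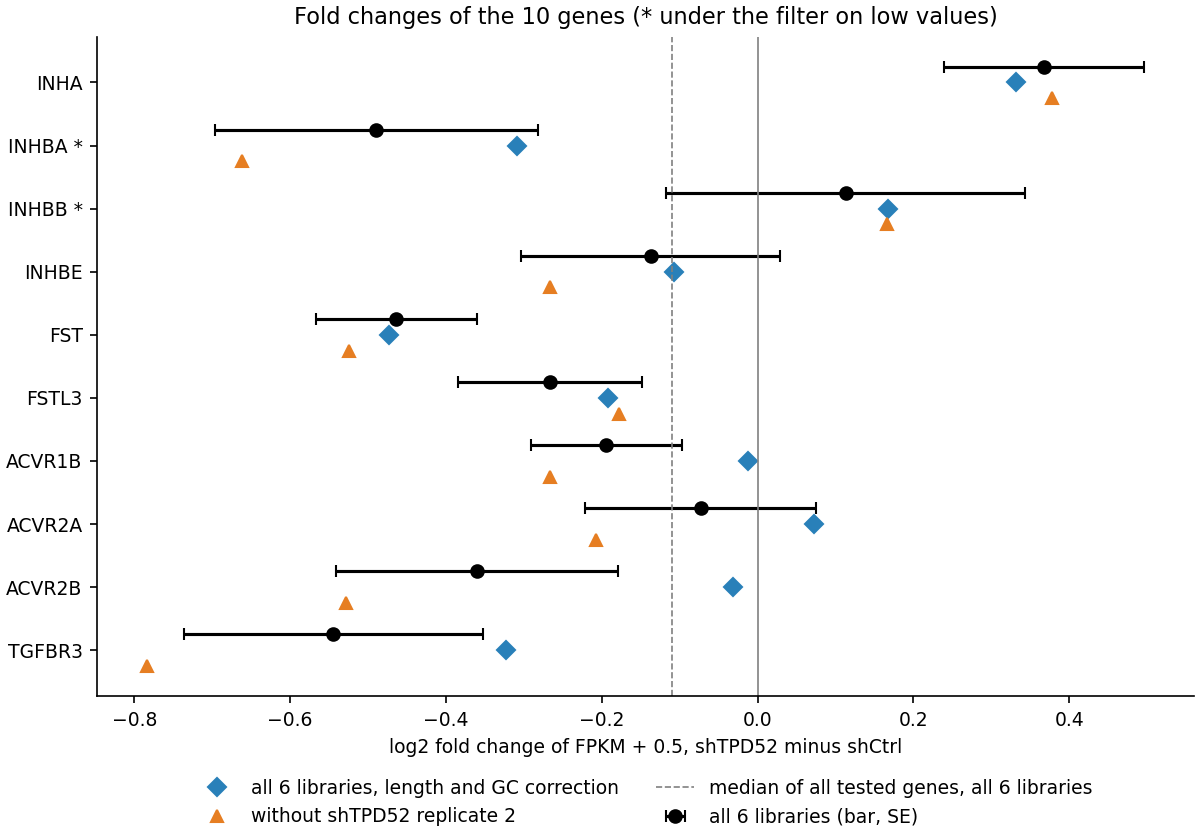
Log2 fold change, shTPD52 minus shCtrl, of the 10 members with all libraries, after the length and GC correction, and without shTPD52 replicate 2 (x axis; the bars are standard errors of the first). FST keeps about the same value under all 3, near -0.5, whereas ACVR1B and ACVR2B move to about 0 after the correction and TGFBR3 reaches -0.78 without replicate 2.

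The genes whose pattern over the 6 libraries was most like that of INHA were SMDT1 (a subunit of the mitochondrial calcium uniporter), CD59 (an inhibitor of complement on the cell surface) and C1R (a complement protease), among the 6455 genes that averaged 5 FPKM or more. Their root mean square differences from INHA, on centred log2 values, were 0.0522, 0.0542 and 0.0561. The median over the 6455 genes was 0.285, but these genes were picked for the smallest differences, so values below it follow from the choice. With a pseudocount of 1 SMDT1, CD59 and C1R ranked 6, 3 and 12, so the order depends on that setting.

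Around the members, the wider pathway was read from 8 lists. These lists (other ligands, other receptors, antagonists and carriers, proprotein convertases, SMADs and their partners, SMAD2/3 targets, SMAD1/5/9 targets, and regulators of INHA) held 110 genes beyond the members, of which 69 were tested. Of these, 2 rose, 12 fell and 55 did not pass, so 20.3% were called, beside 18.3% of all genes tested. All genes tested leaned the same way, with 5.63% called higher and 12.7% called lower. The median log2 fold change was -0.20, beside -0.11 over all genes, and -0.11 after the length and GC correction. Of the 14 called genes, 10 stayed called in the same direction after that correction. Without shTPD52 replicate 2, 34 of the 69 fell, beside 32.9% of all genes tested in the same fit. With the length and GC correction as well, 19 of the 69 fell, beside 19.9% of all genes tested. Leaving out another library left between 0 and 4 lower. Without shCtrl replicate 3, limma called 0 of the 69 in either direction, with 21 at an unadjusted p under 0.05.

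Of the 20 SMADs and partners tested, 2 fell, SMAD6 and SMAD3, beside 12.7% of all genes tested. SMAD6, an inhibitory SMAD of BMP signalling that is also listed as a SMAD1/5/9 target, was at 2.26 ± 0.258 FPKM in shTPD52 and 4.19 ± 0.267 FPKM in shCtrl (SD, n = 3 each), with a log2 fold change of -0.77 (SE 0.11, adjusted p = 0.0109). SMAD3, a transducer of activin and TGF-β, was at 4.73, 6.30 and 4.30 FPKM in shTPD52, against 8.54, 8.83 and 9.02 FPKM in shCtrl, a log2 fold change of -0.74 (SE 0.13, adjusted p = 0.0158). In both genes the groups were far apart, and both passed after the length and GC correction at a log2 fold change of -0.48. The other 18 SMADs and partners tested did not pass, among them SMAD2 (2.14 ± 0.248 FPKM in shTPD52, 2.37 ± 0.0706 FPKM in shCtrl) and SMAD4 (2.30 ± 0.457 FPKM in shTPD52, 2.66 ± 0.345 FPKM in shCtrl). The median of the 20 was -0.27, and -0.086 after the length and GC correction. With that correction 2 of the 20 were called lower, beside 10.1% of all genes tested. Without shTPD52 replicate 2, 14 of the 20 passed as lower, beside 32.9% of all genes tested, in a fit without the length and GC correction.

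Of 13 tested genes known as SMAD2/3 targets, 1 rose, 2 fell and 10 did not pass, with a median of -0.28. Among all genes tested, 5.63% were called higher and 12.7% lower. Of the cyclin-dependent kinase inhibitors in the list, CDKN1A and CDKN2B fell and CDKN1C did not pass. CDKN1A (p21) was at 39.0 ± 0.627 FPKM in shTPD52 and 47.9 ± 0.630 FPKM in shCtrl (log2 fold change -0.29, adjusted p = 0.0268, but 0.166 with median-ratio scaling). CDKN2B (p15) was at 1.39 ± 0.314 FPKM in shTPD52 and 2.24 ± 0.0198 FPKM in shCtrl (-0.55, adjusted p = 0.0412). Of the 6 SMAD1/5/9 targets tested, SMAD6 fell and 5 did not pass.

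Outside the cell, counts stand beside 5.63% of all genes tested called higher and 12.7% called lower. Of 8 other ligands, 1 fell, GDF15, a stress-induced family member, at 1.68 ± 0.180 FPKM in shTPD52 and 2.81 ± 0.619 FPKM in shCtrl (-0.59, adjusted p = 0.0441, but 0.0851 with median-ratio scaling). Of 12 other receptors, 1 fell: NEO1, the receptor neogenin, at 5.39, 8.19 and 5.85 FPKM in shTPD52 and 9.45, 10.2 and 10.6 FPKM in shCtrl (-0.62, adjusted p = 0.0302). Of 7 antagonists and carriers, 1 rose, 3 fell and 3 did not pass. After the length and GC correction 1 of the 7 was higher and 1 lower, beside 10.2% and 10.1% of all genes tested. HTRA1, a secreted serine protease, was at 11.2, 10.5 and 11.6 FPKM in shTPD52, against 8.05, 7.24 and 7.05 FPKM in shCtrl (0.55, adjusted p = 0.0130). LTBP1, which tethers latent TGF-β to the matrix, was at 22.5, 34.3 and 19.7 FPKM in shTPD52, against 41.7, 44.6 and 47.4 FPKM in shCtrl (-0.83, adjusted p = 0.0250). LTBP3 (-0.27, adjusted p = 0.0449) and LTBP4 (-0.43, adjusted p = 0.0171) of the same family also fell, but with the length and GC correction neither passed, LTBP3 at 0.067 (adjusted p = 0.453) and LTBP4 at -0.13 (adjusted p = 0.140). Both tested convertases, enzymes that cut propeptides off secreted precursors, fell. FURIN, which cleaves TGF-β family precursors, was at 16.8 ± 1.78 FPKM in shTPD52 and 23.3 ± 0.950 FPKM in shCtrl (-0.46, adjusted p = 0.0203, and 0.0626 after the correction). PCSK7 had a log2 fold change of -0.51 (adjusted p = 0.0429, and 0.443 after the correction).

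Of the 6 tested genes known to act on INHA transcription, 1 fell and 5 did not pass, beside 12.7% of all genes tested called lower. NR0B1 (DAX-1), a nuclear receptor that represses the steroidogenic factor NR5A1, was at 7.06, 6.01 and 6.88 FPKM in shTPD52, against 11.1, 10.8 and 10.7 FPKM in shCtrl (log2 fold change -0.67, SE 0.091, adjusted p = 0.00886). It passed in 18 of 19 alternatives. NR5A1 itself was at 73.6 ± 4.51 FPKM in shTPD52 and 71.8 ± 1.22 FPKM in shCtrl (0.034, adjusted p = 0.760). GATA4 had a log2 fold change of -0.095 (adjusted p = 0.556), GATA6 of -0.031 (adjusted p = 0.894), the cAMP-responsive factor CREM of 0.058 (adjusted p = 0.610) and the GATA cofactor ZFPM1 of -0.16 (adjusted p = 0.391). The groups overlapped for all 5. The median of the 6 was -0.063.

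**Figure D5:**
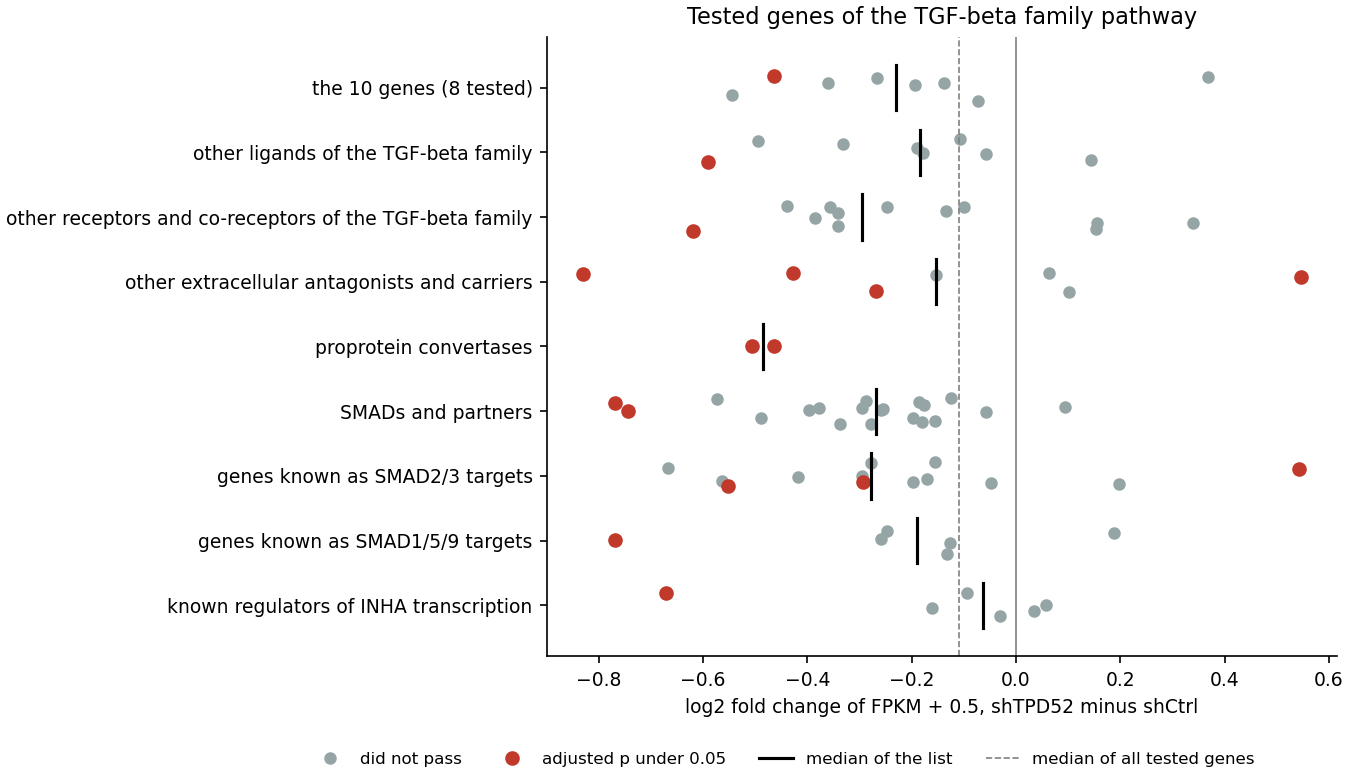
Log2 fold change, shTPD52 minus shCtrl (x axis), of each tested gene in the member list and the 8 pathway lists, 1 row per list, with genes that passed at an adjusted p under 0.05 marked. Most points lie below 0, and the red point farthest left is LTBP1 at -0.83, followed by SMAD6 at -0.77, which appears in 2 rows, while 2 points that passed lie above 0, HTRA1 the higher at 0.55.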

How the data were processed

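FPKM per gene were computed by the authors and deposited for 6 libraries; per the submitters' processing notes HISAT2 2.2.1, featureCounts 2.0.3 and GRCh38 were used. No source used here gives the annotation, the read filters or whether strand was used. Symbols were matched for 34864 of 34869 identifiers, with coordinates and exon lengths from GENCODE 29. Groups and replicate numbers came from the sample titles. The 12782 genes that averaged 1 FPKM or more were tested with limma 3.58.1 in R 4.3.3 on log2(FPKM + 0.5), with a variance trend, two-sided, and Benjamini-Hochberg adjustment over all genes at a threshold of 0.05. INHBA, INHBB and TPD52, under the filter, were added together to a fit of 12785 genes. FPKM carry no depth, so reads were worked back from their whole-number steps (tolerance 0.02 reads): 19235 genes gave whole reads at their GENCODE length and 13276 at a length searched for, which brings wholeness about and so does not check it. Odd numbers made up 26.6% to 29.7% of low counts, the pattern of counted mates, so independent fragments may be fewer. Intervals and floors cover counting error only. The test was repeated with other pseudocounts (0.1 and 1), another filter (none or 5 FPKM), median-ratio or quantile scaling, rescaling outside mitochondrial genes, another prior (no trend, or robust), a replicate block, a length and GC correction (a loess fit per library with span 0.3), limma-voom on recovered reads, each library left out, and, added after the data were seen, that correction without shTPD52 replicate 2. The scripts were tested on simulated data, in which the share of false calls at this threshold varied between draws and was on average above the nominal level, so calls near the threshold are less certain than their adjusted p states. The members and lists were chosen with earlier results of these data known. Named were all members, TPD52, passing genes of each list (at most 6), all tested regulators of INHA, and 3 genes most like INHA. SMAD2 and SMAD4 were added after their values were seen. A planned description of protein sequences was not run, and CRIPTO, GREM1, FOXL2, LHCGR and DBH were not analysed here. Some results of the lists are not reported here. Promoters are from RefSeq.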

Additional observations from a re-analysis of the deposited data

How the results depend on the processing

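The number of genes called, 2341, was 531 without a filter, 4970 with the length and GC correction without shTPD52 replicate 2, and 87 to 5825 on leaving out 1 library, lowest without shCtrl replicate 3 and highest without shTPD52 replicate 2. Median-ratio scaling called 1083 higher and 1038 lower, quantile normalization 1152 and 1188, and the length and GC correction 1306 and 1295, where the deposited scale gave 720 and 1621. Members called higher were 1 (INHA) with median-ratio scaling or quantile normalization, against 0. Members called lower, 1 in the report, were 0 without a filter or with a filter of 5 FPKM (where most members have no value), 2 with the replicate block or with the length and GC correction without shTPD52 replicate 2, and 0 to 4 on leaving out 1 library. Pathway genes called higher, 2 in the report, were 1 without a filter or with the filter of 5 FPKM, 4 with the correction without shTPD52 replicate 2, and 0 to 3 on leaving out 1 library. Those called lower, 12, were 3 without a filter, 19 with that correction and 0 to 34 on leaving out 1 library. The ACVR2A log2 fold change ran from -0.21 to 0.0083 on leaving out 1 library and turned positive with median-ratio scaling (0.019), quantile normalization (0.049), the length and GC correction (0.072), that correction without shTPD52 replicate 2 (0.051) and without shTPD52 replicate 3. TPD52 stayed lower but did not pass without a filter (-0.65, adjusted p = 0.067), with the length and GC correction (-0.49, adjusted p = 0.0918) or with that correction without shTPD52 replicate 2 (-0.35, adjusted p = 0.141), and ran from -0.70 to -0.60 on leaving out 1 library. Of the 3 genes most like INHA, 1 was kept with a pseudocount of 1. The α to β ratio differed by 2.88 to 4.56 on leaving out 1 library. Same-numbered libraries correlated at 0.045, 0.248 and 0.022 in their deviations from the group means, and shTPD52 replicate 3 correlated best with shCtrl replicate 1 (0.283), so the numbers were not taken to pair the samples. With the replicate block 3064 genes were called and TGFBR3 passed (-0.54, adjusted p = 0.0342). The cause of these shifts was not tested. Depth limits INHBB most, at 0 to 16 reads per library.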
